A study of Mus musculus with 6 samples.

Results

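Accessible chromatin at 10 genes of the neuromesodermal progenitor and of the trunk to tail transition was compared between neural progenitors overexpressing Nr6a1 and progenitors with a control virus. The genes were T, Tbx6, Msgn1, Cdx1, Cdx2, Cdx4, Nkx1-2, Fgf8, Wnt3a and Gdf11. An interval was taken when its midpoint lay inside the body of one of these genes, or when the nearest end of any protein-coding gene was theirs, within 300 kb. Of 52223 intervals in all, 23 met this rule, 9 of them inside a gene and 14 outside. Tbx6 had none, since the intervals around it lay nearer to other genes. The farthest interval taken lay 32.3 kb from its gene (Cdx4), and 0 intervals nearest to these genes lay beyond the limit.

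The samples were mouse embryonic stem cell derived neural progenitors, 3 Nr6a1OE and 3 mScarlet, assayed by ATAC-seq, in which the Tn5 transposase cuts accessible DNA and tags it for sequencing. The lentivirus carried either Nr6a1 joined by a 2A peptide to the fluorescent protein mScarlet3, or mScarlet3 alone. Every culture began in bFGF, received 5 µM of the GSK3 inhibitor CHIR99021, which activates Wnt signalling, on day 2, and 100 nM retinoic acid with 10 nM of the hedgehog agonist SAG from day 3. From day 5, when virus was added, the medium held SAG only, and on day 9 fluorescent cells were sorted at 50000 per library. No source used here gives the promoter that drives the transgene or the number of separate cultures, so p-values measure the spread between these libraries, which may be technical. The libraries held 6857763 to 8030029 fragments in intervals. The 10 neural progenitor markers (Sox1, Sox2, Sox3, Nes, Pax6, Olig2, Nkx6-1, Nkx2-2, Irx3 and Hes5) all had an interval within 1 kb of a gene end, with levels of 9.65 to 67.6 CPM (fragments scaled to the library's total in intervals times its TMM factor) per kb of interval in Nr6a1OE and 9.44 to 69.2 in mScarlet. Of the 5 pluripotency markers, Pou5f1 and Zfp42 had no such interval, Nanog and Tdgf1 had weak ones (4.38 and 3.08 CPM per kb in Nr6a1OE, 3.51 and 3.57 in mScarlet), and Klf4 had one of 24.7 CPM per kb in Nr6a1OE and 23.9 in mScarlet.

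Neuromesodermal progenitors lie at the caudal end of the embryo and give rise to both spinal cord and paraxial mesoderm. They are kept by Wnt and Fgf signals, carry the mesodermal factor brachyury (T) beside neural factors, and use Cdx proteins to activate trunk Hox genes, whereas Tbx6 and Msgn1 drive the mesodermal exit. Gdf11, a ligand of the TGF-beta family, times the switch from trunk to tail, and in mouse embryos Nr6a1, an orphan nuclear receptor, acts in the trunk phase before that switch.

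In these neural cells the promoters fell into a class covered by an accessible interval and a class with none, and the classes differed in CpG content. RefSeq promoter windows, 250 bases before to 50 after the annotated start (GRCm38.p6, the coordinates of mm10), were found for 8 of the 10 genes. Cdx1 and Fgf8 had none. Deposited intervals covered all 300 bases of the windows of T, Nkx1-2, Wnt3a and Gdf11 and 250 bases of that of Cdx2, and 0 bases at Tbx6, Msgn1 and Cdx4. The sequences below are of 3 covered promoters (Wnt3a, Cdx2, T) and of the 3 without an interval (Cdx4, Tbx6, Msgn1), written 5′ to 3′ along the gene with every CpG in capitals.
Wnt3a (chr11:59290702-59291001, minus strand): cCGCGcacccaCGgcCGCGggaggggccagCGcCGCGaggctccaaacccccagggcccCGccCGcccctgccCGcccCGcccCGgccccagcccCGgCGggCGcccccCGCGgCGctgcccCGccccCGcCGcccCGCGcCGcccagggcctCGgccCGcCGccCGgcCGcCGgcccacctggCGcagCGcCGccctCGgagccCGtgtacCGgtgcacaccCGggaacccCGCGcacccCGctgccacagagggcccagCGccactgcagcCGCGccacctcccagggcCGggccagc
Cdx2 (chr5:147307200-147307499, minus strand): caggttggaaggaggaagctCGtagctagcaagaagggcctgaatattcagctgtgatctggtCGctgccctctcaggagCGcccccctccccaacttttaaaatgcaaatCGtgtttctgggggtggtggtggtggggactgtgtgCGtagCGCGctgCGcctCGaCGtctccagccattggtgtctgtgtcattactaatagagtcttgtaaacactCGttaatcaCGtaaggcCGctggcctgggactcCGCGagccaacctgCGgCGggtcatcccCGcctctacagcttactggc
T (chr17:8434173-8434472, plus strand): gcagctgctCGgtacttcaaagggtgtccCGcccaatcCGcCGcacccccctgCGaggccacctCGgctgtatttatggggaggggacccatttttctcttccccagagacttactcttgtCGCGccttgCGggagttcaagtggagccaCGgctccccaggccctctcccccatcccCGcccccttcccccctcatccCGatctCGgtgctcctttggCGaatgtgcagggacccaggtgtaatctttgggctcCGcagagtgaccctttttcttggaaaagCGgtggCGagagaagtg
Cdx4 (chrX:103321148-103321447, plus strand): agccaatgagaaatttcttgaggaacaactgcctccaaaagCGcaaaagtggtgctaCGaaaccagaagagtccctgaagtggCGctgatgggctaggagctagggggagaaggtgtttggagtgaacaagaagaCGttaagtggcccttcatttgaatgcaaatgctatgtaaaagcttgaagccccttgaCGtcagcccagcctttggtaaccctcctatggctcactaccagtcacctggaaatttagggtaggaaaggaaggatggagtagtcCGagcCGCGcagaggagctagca
Tbx6 (chr7:126781233-126781532, plus strand): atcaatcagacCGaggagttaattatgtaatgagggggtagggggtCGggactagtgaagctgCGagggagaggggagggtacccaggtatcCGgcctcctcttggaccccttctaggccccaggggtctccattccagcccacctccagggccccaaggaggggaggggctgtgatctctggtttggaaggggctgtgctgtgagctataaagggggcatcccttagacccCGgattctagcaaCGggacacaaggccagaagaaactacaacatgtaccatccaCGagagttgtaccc
Msgn1 (chr12:11208899-11209198, minus strand): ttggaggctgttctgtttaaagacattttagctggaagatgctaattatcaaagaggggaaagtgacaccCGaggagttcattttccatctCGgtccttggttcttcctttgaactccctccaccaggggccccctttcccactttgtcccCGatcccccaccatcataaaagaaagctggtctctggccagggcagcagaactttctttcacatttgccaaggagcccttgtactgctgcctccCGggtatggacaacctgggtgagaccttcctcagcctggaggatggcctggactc
The covered windows held 45 CpGs at Wnt3a, 36 at Gdf11, 21 at Nkx1-2, 18 at Cdx2 and 17 at T, and the uncovered ones 8 at Cdx4, 7 at Tbx6 and 4 at Msgn1. The ranges of the 2 classes therefore did not overlap. The median of all 32851 RefSeq promoter windows was 7 (quartiles 3 and 20). The same relation held across the genome, since an interval overlapped 97.8% of the 10320 windows with at least 17 CpGs and 12.8% of the 17811 with at most 8. Those limits were set from the values of the 8 genes.

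The letters of 5 motifs were searched in the 8 windows on both strands. The direct repeat of AGGTCA with no spacer, the site bound by Nr6a1, is in 0 of them and in 0.00609% of all windows. The single receptor site AAGGTCA, which ends in the same letters, is also in none of the 8 (4.72% of all windows). Neither the T-box letters GGTGTGA (3.98% of all windows) nor the Cdx letters TTTATTG (4.60%) occur in the 8. The Lef and Tcf letters CTTTGAT (3.73% of all windows) occur once, in the Msgn1 window, 203 bases before the start. These are matches of letters and not binding sites. At such small shares of all windows, absence from 8 windows says little, and variants of these letters were not searched.

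Levels per kb at the gene ends spanned a wide range. For each gene the interval with the highest total CPM within 1 kb of a gene end was taken, a choice that favours wide intervals, and it was set against the intervals taken in the same way for all 14201 protein-coding genes that had one. Gdf11 held the most among the genes with an interval of their own at a gene end, 31.1 ± 0.619 CPM per kb in Nr6a1OE and 31.7 ± 1.75 in mScarlet (SD, n = 3 each). That is more than at 46.5% of these genes in Nr6a1OE and 47.5% in mScarlet. Cdx2, Fgf8, Nkx1-2 and Wnt3a followed at 9.62 to 11.8 CPM per kb in Nr6a1OE and 8.11 to 10.8 in mScarlet, above 12.5 to 15.5% of genes in Nr6a1OE and 10.9 to 14.4% in mScarlet. T held 6.58 ± 1.01 CPM per kb in Nr6a1OE and 5.17 ± 0.690 in mScarlet, and Cdx1 held 5.30 ± 0.357 and 4.59 ± 0.532 in the same groups (SD, n = 3 each). In both groups the libraries of Gdf11 lay above those of every other gene, those of Wnt3a above those of T, and those of T and Cdx1 overlapped. Cdx2, Fgf8 and Nkx1-2 could not be ordered, since neighbours among them overlapped in each group. The median over all genes was 32.7 CPM per kb in Nr6a1OE and 32.8 in mScarlet. Cdx2 and Fgf8 each had a second interval within 1 kb of a gene end that was narrower and denser, at 17.9 ± 1.04 CPM per kb in Nr6a1OE and 16.9 ± 0.270 in mScarlet for Cdx2 (1219 bp) and at 20.0 ± 0.423 and 15.8 ± 0.508 in the same groups for Fgf8 (1033 bp; SD, n = 3 each).

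The intervals taken for Nkx1-2 (3326 bp), Cdx2 (3070 bp), T (2830 bp), Fgf8 (2495 bp) and Wnt3a (2306 bp) were longer than those of 92.3 to 98.7% of all genes, whose median was 1366 bp. Those of Cdx1 (1540 bp) and Gdf11 (1806 bp) were longer than 64.5 and 79.6%. Length was not particular to these genes, as neural markers were also wide, for example Sox2 at 3302 bp and Olig2 at 3004 bp, with higher levels of 33.9 and 21.6 CPM per kb in Nr6a1OE and 34.3 and 21.5 in mScarlet. Markers of primitive streak and mesendoderm held 8.42 to 18.5 CPM per kb at their gene ends in Nr6a1OE and 7.55 to 17.9 in mScarlet (Mixl1, Eomes, Mesp1, Gsc and Sox17, 5 of 5 with an interval). Summed over the 5, the level was 153 to 160 CPM over the Nr6a1OE libraries and 143 to 165 over the mScarlet libraries. For the paraxial mesoderm markers Tcf15, Foxc1, Foxc2 and Pax1 the sum was 194 to 207 CPM in Nr6a1OE and 192 to 201 in mScarlet, while Meox1 had no gene-end interval. Fewer open cells and less accessibility per cell cannot be told apart in such bulk libraries.

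**Figure D1:**
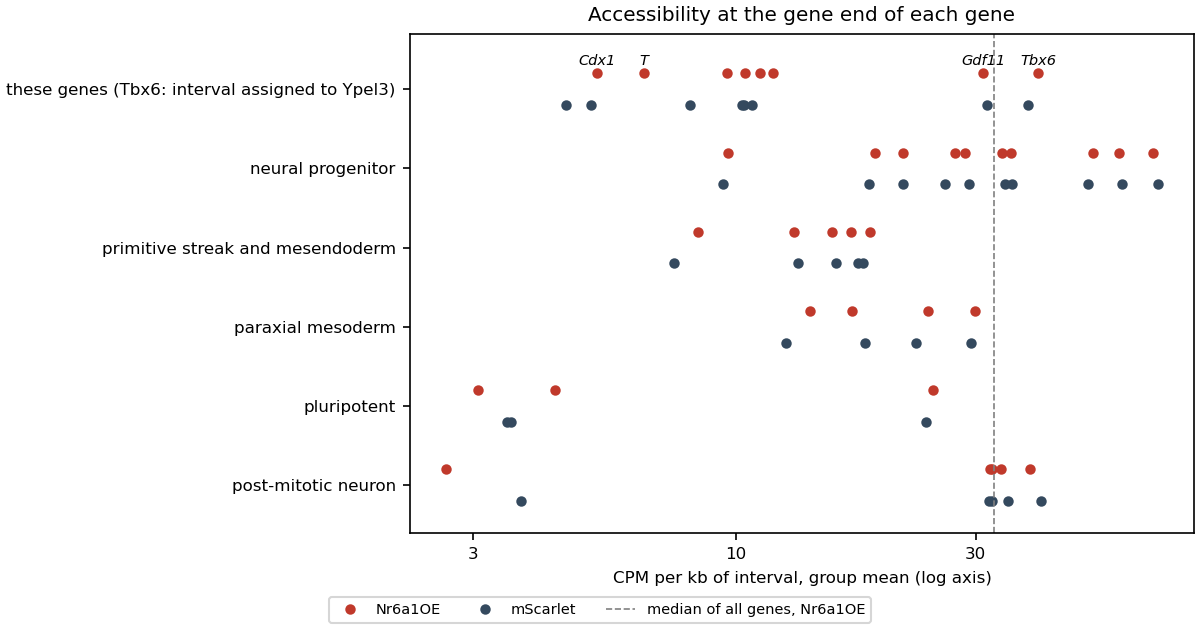
Mean accessibility (CPM per kb of interval, log axis) of the interval with the highest total CPM within 1 kb of a gene end, for the 10 genes and for marker genes, with Nr6a1OE above mScarlet in each row. Each point is a gene. T and Cdx1 are lowest among the 10 at 6.58 and 5.30 CPM per kb in Nr6a1OE, Gdf11 is near the median of all genes (dashed line, 32.7 CPM per kb in Nr6a1OE), Msgn1 and Cdx4 have no point, and the Tbx6 point is an interval assigned to Ypel3.

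Nr6a1 overexpression left these genes largely without a called change. Accessibility rose at 1 of the 23 intervals, inside Wnt3a, and fell at 0 (edgeR quasi-likelihood test, Benjamini-Hochberg adjusted p under 0.05 over all 51637 intervals tested). Intervals past that threshold are called opened where Nr6a1OE was higher and closed where it was lower. All 23 passed the filter on low counts. The opened share of 4.35% was 1 interval, beside 0.469% opened and 1.26% closed over all tested intervals. DESeq2 called 0 of the 23, and 0.191% of all. At an unadjusted edgeR p under 0.05, 5 of the 23 were higher and 0 lower in Nr6a1OE, beside 5.73% and 6.87% of all intervals. The median log2 fold change was 0.10 over the 23 and 0.0038 over all, with 15 above 0 and 8 below. The groups did not overlap at 6 of the 23, with Nr6a1OE above at 5 (21.7%, beside 7.89% of all) and below at 1 (4.35%, beside 8.73%). Intervals of 1 gene share their surroundings and are not independent. Markers of post-mitotic neurons (Tubb3, Dcx, Elavl3, Elavl4 and Isl1) leaned the other way in the same libraries. Of their 26 intervals 20 were lower and 6 higher in Nr6a1OE (median log2 fold change -0.14), with 5 lower and 0 higher at an unadjusted edgeR p under 0.05 and the groups apart at 5, all with Nr6a1OE below. In edgeR 1 was called, closed inside Elavl4 (log2 fold change -0.37, adjusted p = 0.0279), and DESeq2 called 0. That call was lost on leaving out any of 4 libraries (Nr6a1OE 2 or 3, mScarlet 1 or 3; adjusted p over all 6 such fits 0.00935 to 0.354). Summed over the 5 genes' ends, the level was 235 to 252 CPM in Nr6a1OE and 248 to 258 in mScarlet. Their part in the lean of the 23 was not tested. Neural progenitor markers changed in both directions, with 4 of 114 tested intervals opened and 4 closed (edgeR). Their median log2 fold change was 0.00078, with 58 above 0 and 56 below. The closed ones inside Nes and nearest to Nkx6-1 (both -0.45, edgeR adjusted p = 9.35e-09 and 2.06e-06) were also called by DESeq2. Both held on leaving out any 1 library, as did an opened interval nearest to Irx3 (0.53, edgeR adjusted p = 0.000576). DESeq2 did not call the latter.

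**Figure D2:**
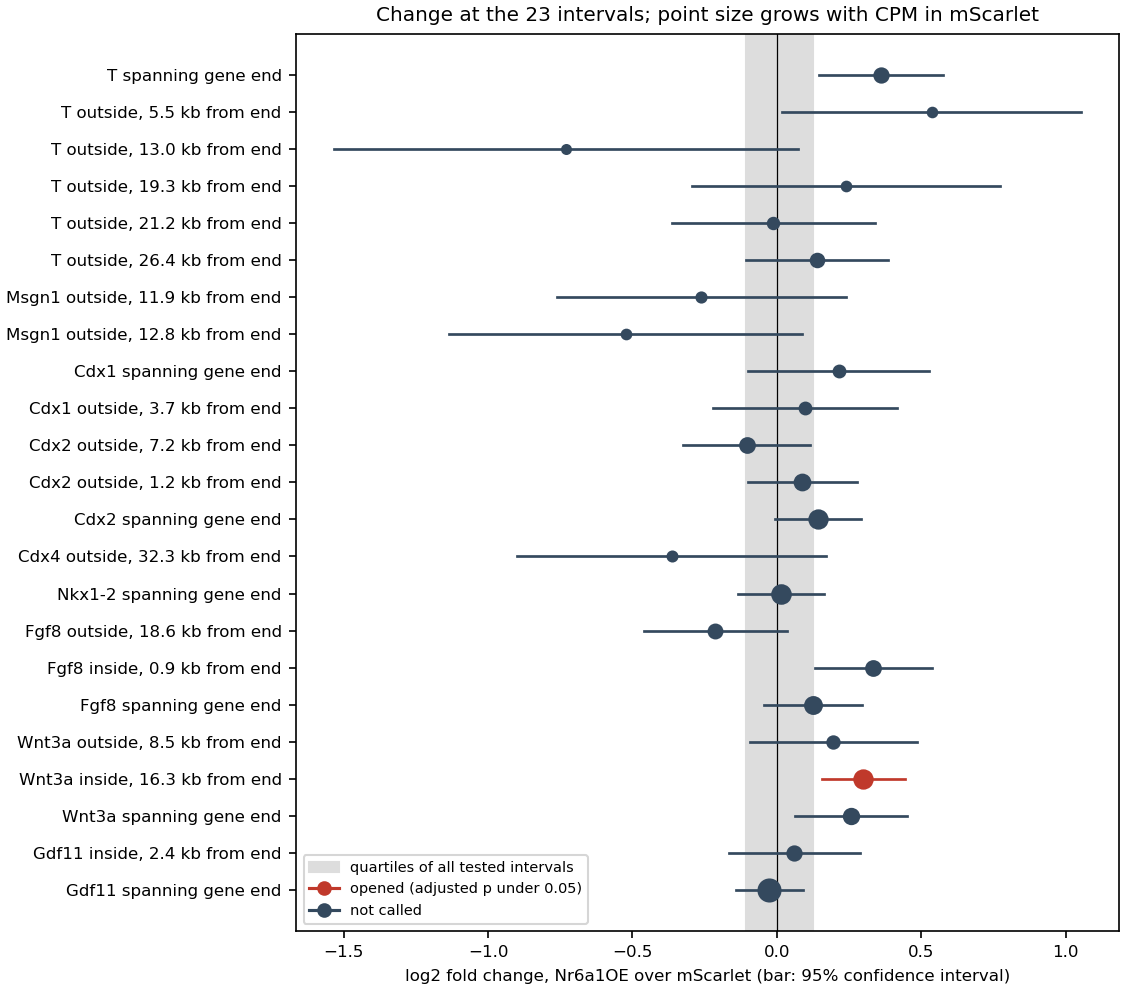
Log2 fold change of Nr6a1OE over mScarlet at the 23 intervals with 95% confidence intervals from edgeR, ordered by gene. The grey band runs between the quartiles of all tested intervals (-0.11 to 0.12), point size grows with CPM, and the called interval inside Wnt3a at 0.30 is in red. The widest bars belong to the weakest intervals.

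Of the secreted signals, Wnt3a, which encodes the main Wnt ligand of the tail bud, gave the called interval. It lies inside the gene (mm10, chromosome 11, 59263600 to 59265085), 26.4 kb downstream of the annotated start. The gene spans 59248036 to 59290751 on the minus strand, and exons and introns were not distinguished. This interval held 44.7, 36.7 and 41.3 CPM in Nr6a1OE 1, 2 and 3, against 33.5, 32.3 and 33.7 CPM in mScarlet 1, 2 and 3. All Nr6a1OE libraries lay above all mScarlet libraries, with Nr6a1OE 2 the nearest to them. This was a ratio of 1.23 and a log2 fold change of 0.30 (SE 0.073, 95% confidence interval 0.16 to 0.44, edgeR adjusted p = 0.00634). On 222 to 327 fragments per library, it was the strongest of the 3 Wnt3a intervals, at 27.5 ± 2.70 CPM per kb in Nr6a1OE and 22.3 ± 0.503 in mScarlet (SD, n = 3 each).

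The call did not hold under every setting. Without Nr6a1OE 1 the log2 fold change was 0.24 (edgeR adjusted p = 0.165), and leaving out any other library kept it at 0.28 to 0.37 with adjusted p of 0.00148 to 0.0446. DESeq2 gave 0.30 (adjusted p = 0.492). All chromosome 11 intervals together had a median of 0.06, and after subtracting each chromosome's median the value was 0.24 (edgeR adjusted p = 0.0561). The part of the chromosome 11 shift in this result was otherwise not tested. Within 500 kb on either side of Wnt3a, 45 intervals had a median of 0.06, and this one alone was called.

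The interval spanning the Wnt3a start (59288928 to 59291233) held 21.9, 22.7 and 22.0 CPM in Nr6a1OE 1, 2 and 3, against 20.9, 20.4 and 14.7 CPM in mScarlet 1, 2 and 3. The groups did not overlap, and mScarlet 3 was low. The log2 fold change of 0.26 (SE 0.099) did not pass (edgeR adjusted p = 0.187), and without mScarlet 3 it was 0.10. The third interval, 8.5 kb beyond the far end of the gene, held 9.66 ± 1.82 CPM in Nr6a1OE and 8.45 ± 0.757 in mScarlet (SD, n = 3 each) and was not called either (log2 fold change 0.20, edgeR adjusted p = 0.627).

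Fgf8 encodes the fibroblast growth factor that keeps caudal progenitors undifferentiated. At its interval inside the gene (chromosome 19, 45736912 to 45737944, 421 bp from a gene end), values were 20.7, 21.1 and 20.2 CPM in Nr6a1OE 1, 2 and 3, against 17.0, 16.0 and 16.1 CPM in mScarlet 1, 2 and 3. The groups were apart with little spread within either. Even so the log2 fold change of 0.33 (SE 0.10, 95% confidence interval 0.13 to 0.54) did not pass over all intervals (edgeR adjusted p = 0.0644), nor without any 1 library (adjusted p = 0.116 to 0.190). The interval spanning the other end of Fgf8 (45741022 to 45743516) held 29.8, 26.3 and 27.6 CPM in Nr6a1OE, against 26.8, 27.4 and 22.9 CPM in mScarlet. These ranges overlapped (log2 fold change 0.13, edgeR adjusted p = 0.585). An interval 18.6 kb outside was lower in mean, 11.4 ± 1.15 CPM in Nr6a1OE and 13.3 ± 1.00 in mScarlet (SD, n = 3 each), and did not pass (-0.21, edgeR adjusted p = 0.498).

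At Gdf11 the groups overlapped at both of its intervals. The interval spanning its start (chromosome 10, 128890646 to 128892451) held 55.3, 55.8 and 57.4 CPM in Nr6a1OE 1, 2 and 3, against 53.7, 58.0 and 59.8 CPM in mScarlet 1, 2 and 3. The Nr6a1OE values all fell within the mScarlet range. The log2 fold change of -0.03 had a 95% confidence interval of -0.14 to 0.09 (edgeR adjusted p = 0.913), the narrowest of the 23. A second interval, 2.4 kb inside the gene, held 13.1, 17.7 and 14.9 CPM in Nr6a1OE, against 14.4, 13.8 and 15.4 CPM in mScarlet, with overlapping groups (log2 fold change 0.06, edgeR adjusted p = 0.888).

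Of the T-box genes, T encodes brachyury, which defines the mesodermal side of neuromesodermal cells. The interval spanning its start (chromosome 17, 8432566 to 8435395) has its midpoint 443 bp upstream, within the predicted gene LOC115486424. It held 20.9, 15.4 and 19.6 CPM in Nr6a1OE 1, 2 and 3, against 15.1, 16.3 and 12.5 CPM in mScarlet 1, 2 and 3. Nr6a1OE 2 lay below mScarlet 2, so the groups overlapped. The log2 fold change was 0.36 (SE 0.11, 95% confidence interval 0.14 to 0.57) and narrowly missed the threshold (edgeR adjusted p = 0.0565). Without Nr6a1OE 2 it was 0.47 and without mScarlet 2 it was 0.44, and each of these passed (edgeR adjusted p = 0.0117 and 0.0373), whereas without mScarlet 3 it was 0.25 (adjusted p = 0.418).

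Downstream of T lay 5 more intervals, 5.5 to 26.4 kb past its far end, narrow at 341 to 678 bp. The densest was the most distant, at 19.5 ± 3.27 CPM per kb in Nr6a1OE and 17.5 ± 1.65 in mScarlet (SD, n = 3 each), denser than the start itself. Their log2 fold changes ranged from -0.73 to 0.54 and none passed (edgeR), with 1 higher at an unadjusted p under 0.05 and 0 called by DESeq2. The groups were apart at 1 of the 5, with Nr6a1OE above, on 13 to 29 fragments per library. Over all intervals the groups were apart with Nr6a1OE above at 7.89%, and 5.73% were higher at an unadjusted edgeR p under 0.05. Tbx6, which commits cells to paraxial mesoderm, had no interval of its own. The closest deposited interval (chromosome 7, 126779999 to 126781044) ends 439 bp before its start and is assigned to Ypel3, with 41.8 ± 1.71 CPM in Nr6a1OE and 40.0 ± 0.655 in mScarlet (SD, n = 3 each; log2 fold change 0.07, edgeR adjusted p = 0.768).

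**Figure D3:**
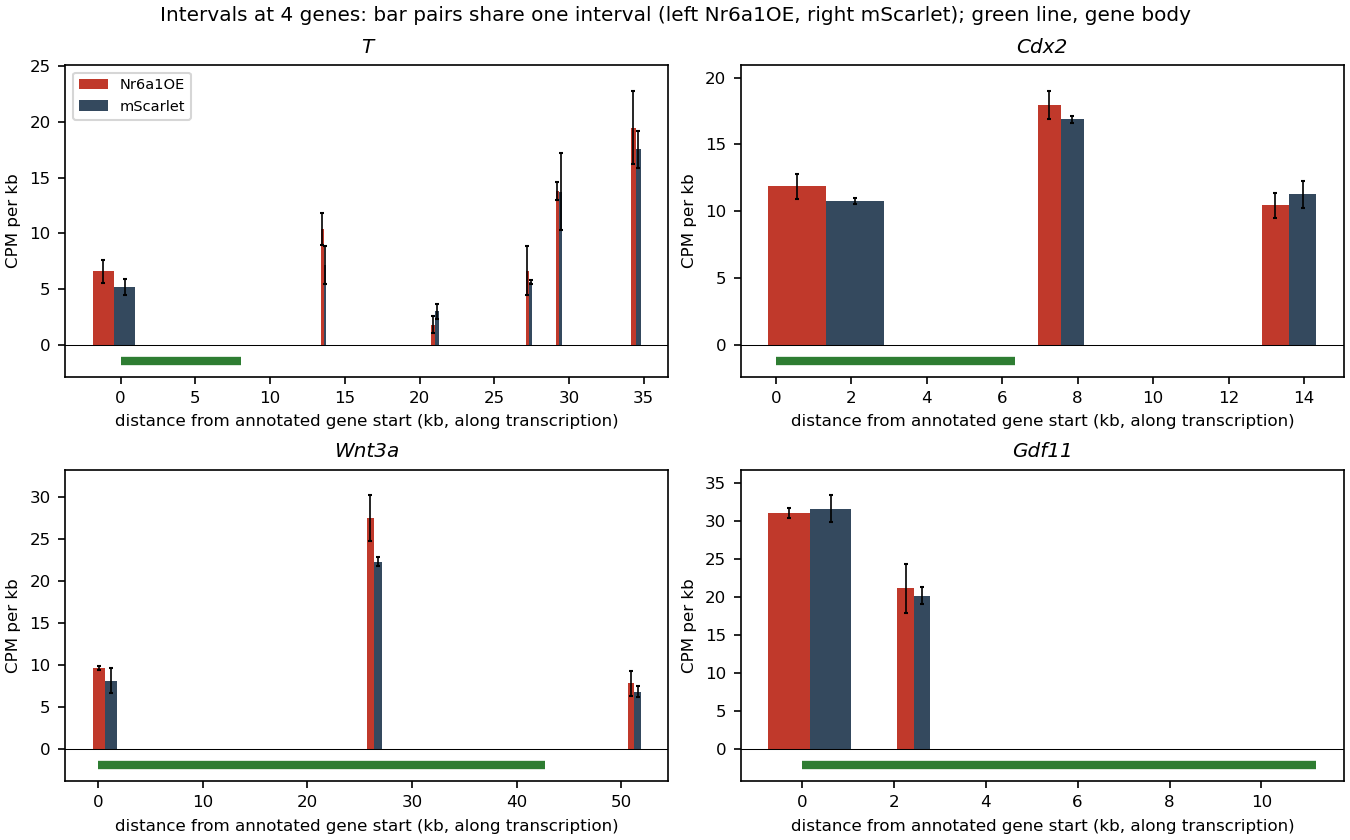
Accessibility (CPM per kb, mean and SD of 3 libraries) against distance from the annotated start along the gene, for T, Cdx2, Wnt3a and Gdf11. Each pair of bars is 1 interval, drawn over its width with Nr6a1OE on the left and mScarlet on the right, and the green line is the gene body. At T and Wnt3a the densest interval lies away from the start (19.5 and 27.5 CPM per kb in Nr6a1OE), likewise at Cdx2 (17.9), and at Gdf11 on it (31.1).

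Msgn1, a bHLH factor of presomitic mesoderm, had no interval at the gene. Its 2 intervals lay 11.9 and 12.8 kb to either side (chromosome 12) and were weak. The one upstream of the start held 1.14, 1.98 and 2.27 CPM in Nr6a1OE 1, 2 and 3, against 2.60, 2.04 and 3.12 CPM in mScarlet 1, 2 and 3, with overlapping groups. Its log2 fold change of -0.52 carried a 95% confidence interval of -1.13 to 0.09 (edgeR adjusted p = 0.502). On 8 to 25 fragments per library the estimate was imprecise, with no change and a fall both inside that confidence interval.

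The Cdx genes, caudal homeobox factors that activate trunk Hox genes, differed in the accessibility summed over the intervals assigned to them. Summed over its 3 intervals, Cdx2 reached 73.2, 69.8 and 77.2 CPM in Nr6a1OE and 69.0, 70.5 and 70.3 CPM in mScarlet. Cdx1 reached 16.1, 15.1 and 15.9 CPM over 2 intervals in Nr6a1OE and 13.1, 14.9 and 14.2 CPM in mScarlet. The midpoints of both Cdx1 intervals lie inside the gene Gm52351, and that of the second lies 3.7 kb outside Cdx1. Cdx4, with 1 interval that lay 32.3 kb upstream (chromosome X, 103288780 to 103289436), held 2.70, 1.98 and 2.65 CPM in Nr6a1OE and 2.74, 3.64 and 3.12 CPM in mScarlet. By this assignment the sums stood in the order Cdx2, Cdx1, Cdx4 in all 6 libraries, though they also count the number and width of the intervals. The deposited interval closest to Cdx4 (103356047 to 103357246, 25.8 kb away) is assigned to Chic1 and was left out. Its mean of 17.3 CPM in Nr6a1OE and 18.5 in mScarlet exceeds every Cdx1 sum above, so the order rests on the assignment.

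None of the 6 Cdx intervals was called (edgeR), with 0 at an unadjusted p under 0.05 and 0 called by DESeq2. Over all intervals edgeR called 0.469% opened and 1.26% closed, and DESeq2 called 0.191%. At an unadjusted edgeR p under 0.05, 5.73% of all were higher and 6.87% lower. Beside such shares, 0 of 6 says little. The one spanning the Cdx2 start (chromosome 5, 147304380 to 147307449) held 36.4, 33.5 and 39.2 CPM in Nr6a1OE 1, 2 and 3, against 33.3, 32.3 and 33.5 CPM in mScarlet 1, 2 and 3. Nr6a1OE 2 and mScarlet 3 nearly met, and the log2 fold change was 0.14 (SE 0.076, edgeR adjusted p = 0.432). At the interval spanning a Cdx1 end (chromosome 18, 61035152 to 61036691) the values were 7.67, 8.76 and 8.07 CPM in Nr6a1OE, against 6.57, 8.01 and 6.62 CPM in mScarlet, overlapping between groups (log2 fold change 0.21, edgeR adjusted p = 0.624). At Cdx4 all Nr6a1OE values lay below all mScarlet values, on 14 to 25 fragments per library (log2 fold change -0.36, SE 0.27, edgeR adjusted p = 0.627). The groups were apart in that direction at 8.73% of all intervals.

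Nkx1-2, a homeobox gene of the preneural tube and caudal epiblast, had 1 interval, which spans its start and most of its body (chromosome 7, 132596904 to 132600229). It held 34.7, 33.2 and 36.3 CPM in Nr6a1OE 1, 2 and 3, against 38.1, 34.2 and 31.2 CPM in mScarlet 1, 2 and 3. The mScarlet libraries spread more widely and enclosed the Nr6a1OE ones. The log2 fold change was 0.02 with a 95% confidence interval of -0.13 to 0.16 (edgeR adjusted p = 0.963).

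**Figure D4:**
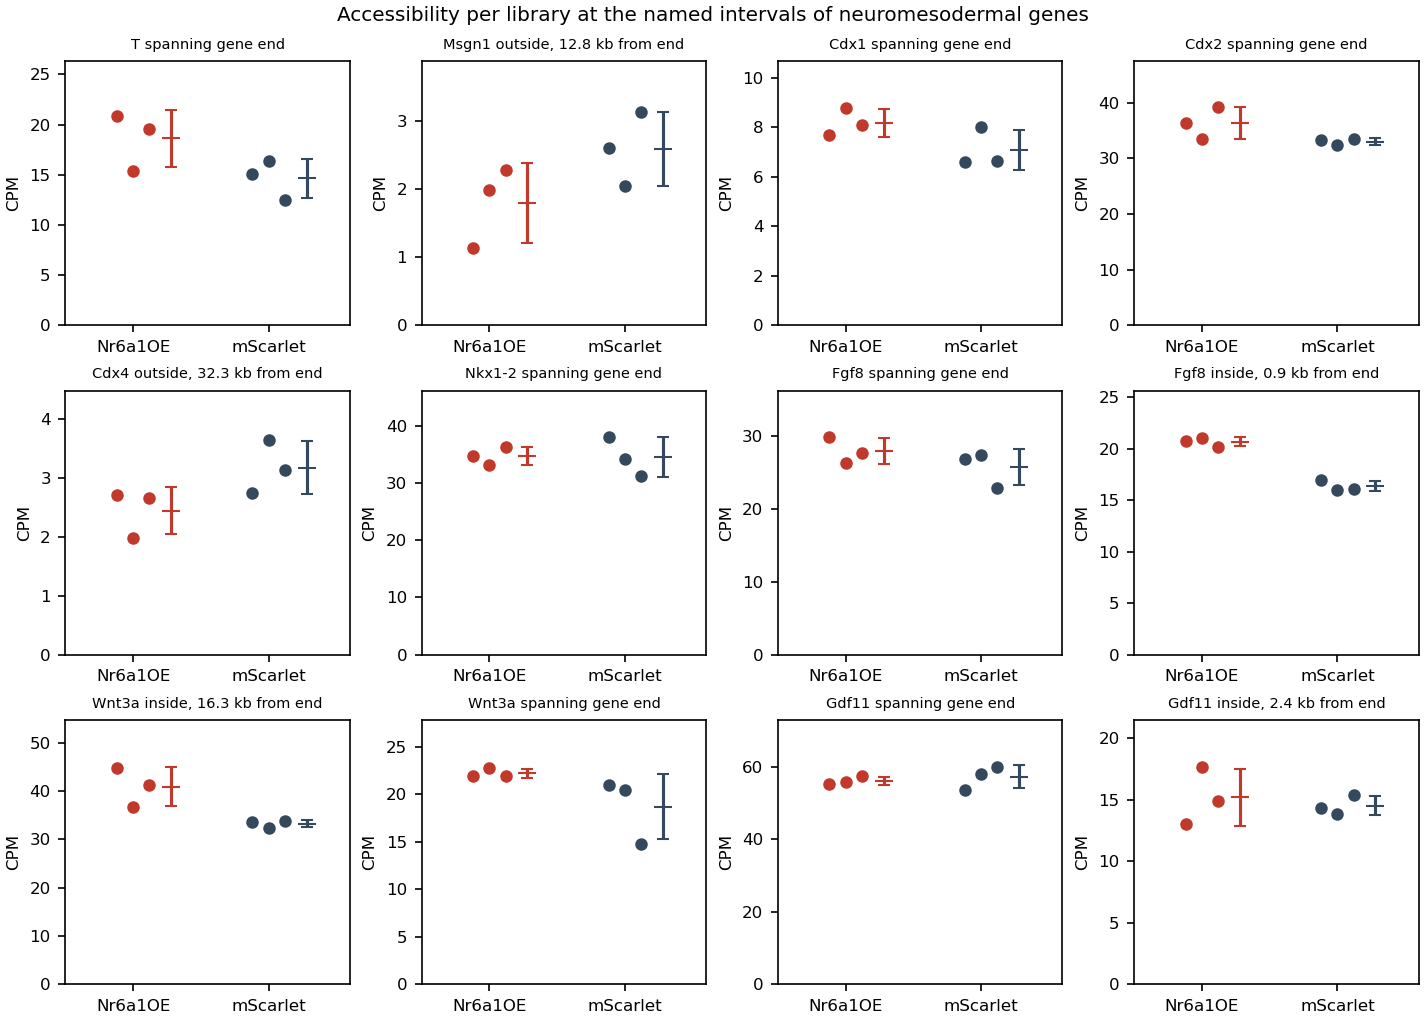
CPM in each library (points) with the group mean and SD (bars, n = 3), Nr6a1OE left of mScarlet, at the 12 intervals of these genes given by library in the text. The axes start at 0 and differ between panels. The groups are apart with Nr6a1OE higher at both Wnt3a panels, at Fgf8 inside the gene and, narrowly, at Cdx2, and with Nr6a1OE lower at Cdx4.

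Around the 10 genes, accessibility within 500 kb moved little. The median log2 fold change of the 11 to 74 tested intervals in each such window lay between -0.10 at Msgn1 and 0.06 at Wnt3a. Of these windows, those of Tbx6, Cdx2, Nkx1-2 and Fgf8 each held 1 closed interval (of 74, 36, 43 and 53 tested), assigned to another gene. The other windows held 0 closed. Over all tested intervals 1.26% closed.

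Related genes also gave few calls. In a list of 15 genes of caudal epiblast and preneural tube (among them Sp5, Sp8, Fgf4, Fgf17, Wnt3, Wnt5a, Wnt8a, Cyp26a1 and Sall4), 1 of 72 intervals opened and 0 closed, beside 0.469% and 1.26% of all. Intervals of 1 gene are again not independent. The median log2 fold change of the 72 was 0.08, with 55 above 0 and 17 below (26222 and 25415 over all tested intervals). At an unadjusted edgeR p under 0.05, 10 were higher in Nr6a1OE (13.9%, beside 5.73% of all) and 3 lower (4.17%, beside 6.87%), and DESeq2 called 0. The groups did not overlap at 10 with Nr6a1OE above (13.9%, beside 7.89% of all) and at 3 with it below (4.17%, beside 8.73%). The opened interval lies inside Wnt5a (chromosome 14, 28515470 to 28516065), which encodes a Wnt ligand of axis elongation. The values were 8.38, 9.18 and 9.59 CPM in Nr6a1OE, against 5.20, 6.41 and 6.12 CPM in mScarlet, with no overlap (log2 fold change 0.62, SE 0.16, edgeR adjusted p = 0.0152). That call was lost without Nr6a1OE 2, Nr6a1OE 3 or mScarlet 1 (edgeR adjusted p = 0.0533, 0.0984 and 0.141) and in DESeq2 (0.628).

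Among 12 genes of presomitic and somite mesoderm, including Dll1, Hes7, Lfng, Mesp2 and Aldh1a2, 0 of 33 intervals were called (median 0.0077), with 2 higher and 1 lower at an unadjusted edgeR p under 0.05 and 0 called by DESeq2. Among 10 genes of Gdf11 signalling, including the receptors Acvr2a, Acvr2b and Tgfbr1, the antagonist Fst and the processing enzyme Pcsk5, 0 of 51 were called by edgeR or DESeq2 (median -0.03), with 1 higher and 1 lower at an unadjusted edgeR p under 0.05. This list also holds Isl1, a post-mitotic neuron marker above, so its intervals count in both lists. Likewise the mesoderm list shares Mesp1 with the primitive streak markers and Meox1, Tcf15, Foxc1 and Foxc2 with the paraxial mesoderm markers. Over all intervals 0.469% opened and 1.26% closed, and 5.73% were higher and 6.87% lower at an unadjusted edgeR p under 0.05. In the mesoderm list the groups did not overlap at 3 with Nr6a1OE above (9.09%) and at 1 with it below (3.03%). In the Gdf11 list these were 1 (1.96%) and 4 (7.84%), beside 7.89% and 8.73% of all.

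**Figure D5:**
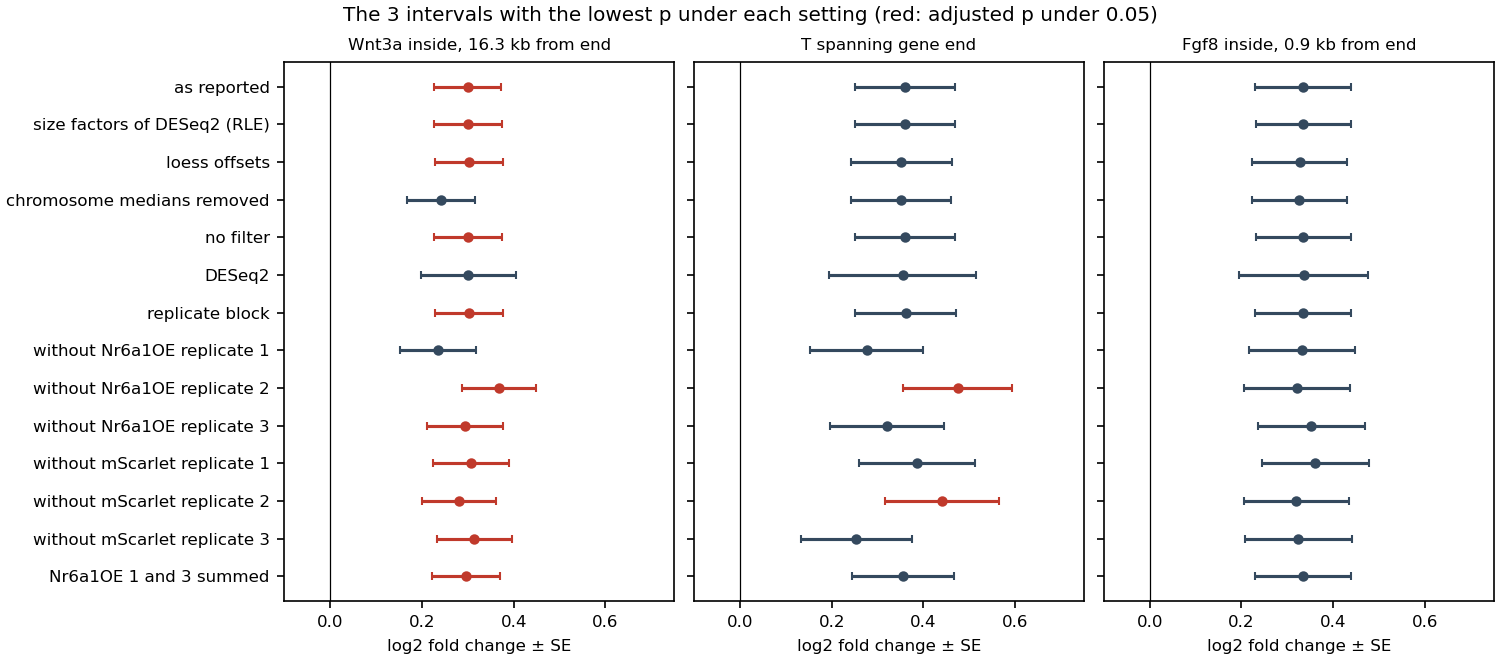
Log2 fold change of Nr6a1OE over mScarlet with its SE at the 3 intervals with the lowest p, as reported and under each alternative, red where the adjusted p was under 0.05. The Wnt3a interval inside the gene stays between 0.24 and 0.37, the T start interval between 0.25 and 0.47 and the Fgf8 interval between 0.32 and 0.36, and the settings that move Wnt3a and T across the threshold differ.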

How the data were processed

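The authors deposited raw fragment counts for 52223 consensus intervals in 6 libraries. Counts were made with featureCounts 2.0.1 on read pairs, per the file headers, and a fragment was counted in each interval that held at least 0.2 of it. The build is mm10, per the submitters' processing notes. No source used here names the aligner, the peak caller, the duplicate treatment, the Tn5 shift or how intervals were merged. Neighbouring intervals may share fragments.

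Intervals were assigned by midpoint to 21900 protein-coding genes of the RefSeq GRCm38.p6 table, where all 10 genes were found. Interval lengths, also deposited, gave CPM per kb. Intervals were filtered with filterByExpr (586 removed), scaled by TMM and tested in R 4.3.3 with edgeR 4.0.16 (the quasi-likelihood functions glmQLFit and glmQLFTest, no covariate), Benjamini-Hochberg adjusted over all 51637. The SE was the fold change over the root of F, and 95% confidence intervals from edgeR's total degrees of freedom. DESeq2 1.42.0 was an alternative. Others were DESeq2 size factors, loess offsets, removal of chromosome medians, no filter, a replicate block, each library left out, Nr6a1OE 1 and 3 summed, and limits of 100 and 10 kb. Replicate pairs differed slightly beyond sampling noise (chi-square over its degrees of freedom 1.05 to 1.10, largest p 1.5e-13 over 51632 intervals), and all were kept as separate libraries. Over so many intervals a small excess gives a low p, so this cannot exclude 1 library sequenced more than once. It also does not show that they are separate cultures. The spread beyond counting noise was small, with a common dispersion of 0.000217 in edgeR, a coefficient of variation of 1.47%. The SE and adjusted p values rest on that small spread. Intervals given by library were, at each gene, those called, the one with the highest mean CPM within 1 kb of a gene end and the one with the lowest p, and in the other lists those called. The choice of 1 interval per gene over all genes for levels and lengths was made after the data were seen. The members, lists and tests were chosen with earlier results of these data known. Motif letters and the CpG limits were chosen after the data were seen.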

Additional observations from a re-analysis of the deposited data

How the results depend on the processing

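The 23 intervals held 0 closed ones under each alternative run. Their opened count was 0 with DESeq2 and 0 with chromosome medians removed, 0 to 2 on leaving out 1 library, and 1 under every other alternative, distance limits of 100 and 10 kb included. Over all intervals, 3 opened and 97 closed in DESeq2, and 98 to 190 opened and 395 to 544 closed on leaving out 1 library, against 242 and 652. In the caudal epiblast list the opened count was 0 with DESeq2 and 0 to 2 on leaving out 1 library, and the closed count 0 to 1. In the mesoderm list the opened count was 0 to 1 on leaving out 1 library. The 4 values that changed sign belonged to uncalled intervals near 0, namely Nkx1-2 (-0.020 without Nr6a1OE 3 and -0.055 without mScarlet 3, range -0.055 to 0.094), the Gdf11 start (0.014 without mScarlet 3, range -0.069 to 0.014) and Gdf11 inside the gene (-0.053 without Nr6a1OE 2, range -0.053 to 0.15). Deviations of same-numbered libraries were nearly uncorrelated (-0.0063 to 0.0044). Since the spread between replicates was close to sampling noise, this could not show whether the replicate numbers pair the libraries. With the replicate as a block 224 opened and 617 closed, and the same 1 of the 23 opened. Weak intervals such as those at Msgn1 and Cdx4 limit what these counts can show.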
